A study of Mus musculus with 8 samples.

Results

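The BCL2 family genes are described here in mouse liver after exposure to furan, a small volatile compound that forms in heated food and injures rodent liver. They are 10 genes, Bax, Bak1, Bcl2, Bcl2l1, Mcl1, Bid, Bcl2l11, Bmf, Bbc3 and Pmaip1, out of 24924 genes or transcripts tested. They were chosen by name, with earlier results of these data known. Each was read from its brightest probe among those that rose well above background on 4 or more of the 8 arrays. All 10 had such a probe, and 9 were well above background on all 8 arrays. Pmaip1 was so on 7, including 3 of the 4 vehicle arrays and 4 of the 4 furan arrays. The vehicle group was 4 female B6C3F1 mice, a hybrid strain, given corn oil alone by gavage, and the furan group was 4 such mice given furan in corn oil at 8 mg per kg body weight. Mice arrived at 5 to 6 weeks of age, dosing ran for 21 days, and livers were collected and snap frozen 4 hours after dosing ended. RNA of each whole-liver piece was hybridised to 1 one-colour Agilent array of a single slide, so a value is an average over all cell types of that piece.

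The BCL2 family sets the threshold for the mitochondrial route of apoptosis. Its effectors, BAX and BAK, open pores in the outer mitochondrial membrane and release cytochrome c. The guardians, such as BCL2, BCL-XL (gene Bcl2l1) and MCL1, hold the effectors in check. The BH3-only proteins BID, BIM (Bcl2l11), BMF, PUMA (Bbc3) and NOXA (Pmaip1) bind guardians or effectors and tip the balance toward death. Hepatocytes depend on BCL-XL and MCL1 for survival, and BID carries death receptor signals to their mitochondria. Bax, Bbc3 and Pmaip1 are known targets of the tumour suppressor p53, and Bcl2l11 and Bbc3 are known targets of FOXO factors.

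The promoter windows of Bax and Bmf are shown because these were the members that passed the test below. Both were taken from RefSeq on build GRCm38.p6, cover the 250 bases before a transcription start and are written 5′ to 3′ on the strand of the gene. Capitals mark a match to the p53 half-site, the decamer of which a p53 tetramer binds a pair. The Bax window is chr7:45466899-45467148 on the minus strand, with the match 201 to 192 bases before the start. The Bmf window is chr2:118544588-118544837 on the minus strand, the only one of 3 Bmf start windows with a match, 213 to 204 bases before the start.
Bax: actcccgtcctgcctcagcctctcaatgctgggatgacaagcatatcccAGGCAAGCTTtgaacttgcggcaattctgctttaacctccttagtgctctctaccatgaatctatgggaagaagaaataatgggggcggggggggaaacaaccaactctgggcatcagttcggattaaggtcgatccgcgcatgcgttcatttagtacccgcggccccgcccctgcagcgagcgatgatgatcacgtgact
Bmf: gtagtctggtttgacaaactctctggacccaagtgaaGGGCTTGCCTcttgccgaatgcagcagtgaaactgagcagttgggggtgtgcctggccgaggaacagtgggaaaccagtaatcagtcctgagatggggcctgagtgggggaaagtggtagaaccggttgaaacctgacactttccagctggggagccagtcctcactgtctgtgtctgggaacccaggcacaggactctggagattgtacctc
Of the 10 genes, 9 had windows in the table, 16 in all, and these 2 held the half-site on either strand. It was present in 7.13% of 32851 mouse windows of the same length. The FOXO motif TGTTTAC, searched on both strands, was in 3.17% of all windows and in 2 of the 16 member windows. Those were a Bcl2l11 window, 227 to 221 bases before the start, and a Bbc3 window, 167 to 161 bases before it. The AP-1 motif TGACTCA, also searched on both strands, was in 4.46% of all windows and in 0 of the 16. A match describes letters only, and no binding was measured.

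The arrays differed in how much of the signal could be measured. Between 55.1% and 86.2% of the probe spots of an array were well above background, and the highest share, on vehicle replicate 2, stood apart from the 55.1% to 69.4% of the other arrays. Values below are log2 processed signals minus the 75th percentile of their array, and every change is the furan mean minus the vehicle mean. A gene passed at a limma adjusted p under 0.05, with Benjamini-Hochberg adjustment over all 24924. Of all features, 714 passed as higher and 327 as lower, so that 68.6% of the calls were higher. That share was 98.8% of 86 calls when arrays were shifted to their median and 88.1% of 261 calls without a shift. All 10 hepatocyte markers tested, among them the albumin gene Alb, were well above background on all arrays and 0 passed. Of 51 tested markers on 8 lists of other liver and blood cell types, 0 passed in either direction. At an unadjusted limma p under 0.05 were 3 of 8 stellate, 2 of 8 sinusoidal endothelial, 1 of 5 B cell and 1 of 10 hepatocyte markers. The other lists had 0, and the share of all features was 23.8%. The endothelial genes Pecam1 (-0.39, limma adjusted p = 0.0550) and Stab2 (-0.48, 0.0687) were lower without overlap, beside 7.36% of all features. The hepatocyte marker Hnf4a (0.31, limma adjusted p = 0.0859) was higher without overlap, beside 10.8%. The changes of the 8 stellate markers ran from -0.50 to 0.51. Cell makeup was not measured.

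The question was which parts of this apoptosis gene family differed in the livers after 3 weeks of furan. Bax rose 2.07-fold and Bmf fell 2.88-fold, and the other 8 members did not pass the test. Thus 1 of 10 members was called higher, beside 2.86% of all features, and 1 of 10 was called lower, beside 1.31%. The groups did not overlap for 2 members that were higher, Bax and Bcl2l1, beside 10.8% of all features, and for 1 that was lower, Bmf, beside 7.36%. The median change of the 10 members was 0.16 and that of all features was -0.09. Their median absolute change, 0.21, lay near the 0.24 of all features. In bulk liver, fewer cells of a type and less RNA per cell cannot be told apart for any of these genes.

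**Figure D1:**
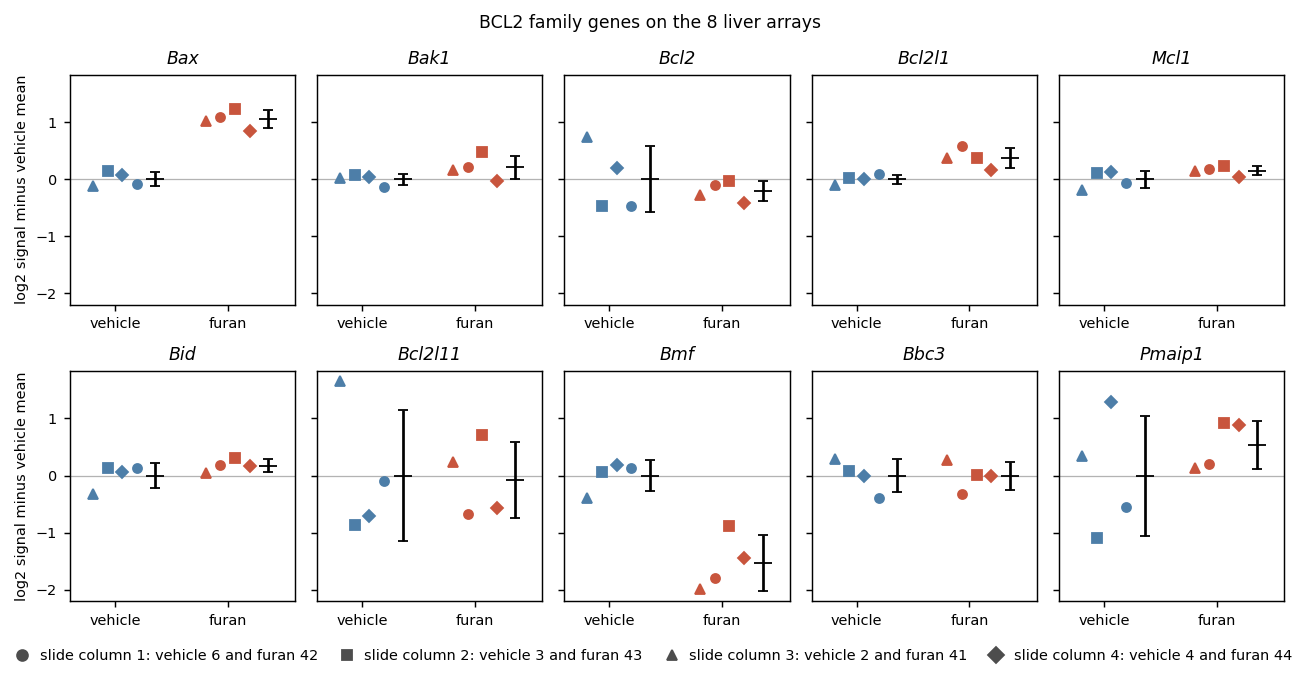
Log2 signal of each of the 10 BCL2 family genes on each array, minus the vehicle mean of that gene; symbols mark the slide column of the array, and the black bar beside each group is its mean with SD (n = 4). Bax lies about 1.05 above and Bmf about 1.53 below its vehicle mean on the furan arrays, without overlap, while vehicle replicate 2 (triangle) is the highest vehicle array for Bcl2 and Bcl2l11.

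Among the effectors, Bax was higher on every furan array than on any vehicle array. Its signal was 2.12, 2.38, 2.31 and 2.16 on vehicle replicates 2, 3, 4 and 6, and 3.26, 3.33, 3.47 and 3.09 on furan replicates 41, 42, 43 and 44. The lowest furan array, replicate 44, was still well above the highest vehicle array, replicate 3. The mean went from 2.24 ± 0.12 (SD, n = 4) to 3.29 ± 0.16, a change of 1.05 ± 0.11 (SE, limma adjusted p = 0.00603). The 95% interval of the change was 0.79 to 1.31, and Bax ranked 58 of all features by p.

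The Bax rise was seen wherever the array lay on the slide. Each slide column held 1 vehicle and 1 furan array, and within the 4 columns the difference was 1.18, 1.09, 1.15 and 0.79. In the 2 slide rows, which held 2 arrays of each group, it was 1.14 and 0.96. The change stayed between 0.99 and 1.12 with any 1 array left out, and limma called it in 8 of these 8 fits (adjusted p 0.0119 to 0.0284). Of 13 other settings 11 kept the call, with adjusted p = 0.147 after a median shift and 0.0964 with the slide column as a block. A median shift moved the median change of all features from -0.09 to 0.39. Relative to the median of each setting, Bax was 0.88 to 1.14 higher under 6 scalings, the lower values coming from those that are not a plain shift of each array.

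Bak1, the other effector, did not pass. Its vehicle arrays read 1.81, 1.87, 1.82 and 1.64 in the order of replicates 2, 3, 4 and 6, and its furan arrays read 1.94, 2.00, 2.26 and 1.76 in the order of 41 to 44. The groups overlapped through furan replicate 44. The change was 0.21 ± 0.12 (SE, limma adjusted p = 0.317), and its interval ran from -0.07 to 0.49, so a rise as large as that of Bax lay outside it. On the same arrays, the log2 ratio of Bax to Bak1 signal went from 0.45 ± 0.10 (SD, n = 4) to 1.30 ± 0.06. Since probes differ in brightness, only the shift of such a ratio between arrays can be read, here 0.84.

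Of the guardians, none passed as the brightest probe of its gene, and the limma adjusted p was 0.0926 for Bcl2l1, 0.362 for Mcl1 and 0.639 for Bcl2. At an unadjusted p under 0.05, 3 of the 10 members passed, Bax, Bmf and Bcl2l1, beside 23.8% of all features. Bcl2l1, which encodes BCL-XL, read 4.02, 4.13, 4.12 and 4.20 on the vehicle arrays and 4.49, 4.69, 4.49 and 4.27 on the furan arrays. Every furan array was above every vehicle array, with furan replicate 44 only slightly so. The change was 0.37 ± 0.11 (SE), from 4.12 ± 0.08 (SD, n = 4) to 4.49 ± 0.17, with an interval of 0.12 to 0.61. It passed in 1 of 13 other settings, a limma fit with a variance trend and robust estimation (adjusted p = 0.0434), and in 0 of 8 fits without 1 array. A second, dimmer Bcl2l1 probe changed by 0.11 ± 0.13 (limma adjusted p = 0.587 with each probe on its own).

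Mcl1, the short-lived guardian on which hepatocytes rely, gave different answers on its probes. The brightest probe read 4.53, 4.82, 4.83 and 4.65 on the vehicle arrays and 4.86, 4.88, 4.94 and 4.75 on the furan arrays. These groups overlapped, and the change was 0.15 ± 0.10 (SE, limma adjusted p = 0.362; interval -0.08 to 0.38). The second Mcl1 probe read 0.89, 1.00, 1.13 and 1.11 on the vehicle arrays and 1.71, 1.75, 1.58 and 1.38 on the furan arrays. Here every furan array was above every vehicle array, by 0.57 ± 0.11 on average (adjusted p = 0.0396 over 33847 probes, of which 2.26% passed as higher). The cause of the disagreement was not tested, and the stretch of the transcript that each probe reads was not used here. The call of the second probe was lost in all 8 fits without 1 array (adjusted p 0.0608 to 0.120). It was also lost with quantile normalization (0.0514), a median shift (0.495), no shift (0.0776) and the slide column as a block (0.191). It was kept with normexp (0.0402), the authors' value table (0.0345), trend and robust variance (0.0118), array weights (0.0303) and the slide row as a block (0.0472). The mean of the Mcl1 probes changed by 0.36 and did not pass (limma adjusted p = 0.0861).

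Bcl2, the founding guardian, was low in signal and varied among the vehicle arrays. It read -0.41, -1.61, -0.95 and -1.61 on vehicle replicates 2, 3, 4 and 6 and -1.42, -1.25, -1.17 and -1.57 on the furan arrays. The furan values lay inside the range of the vehicle values, with vehicle replicate 2 the highest of the 8. The change was -0.20 ± 0.27 (SE, limma adjusted p = 0.639; interval -0.84 to 0.43), and without vehicle replicate 2 it was 0.04. The summed signal of cholangiocyte markers, genes of bile duct cells, was also highest on that array, as were 4 of the 7 tested markers, among them Krt7, Krt19 and Epcam. The sum, relative to the 75th percentile of the array, was 1.95 to 4.45 on the vehicle arrays, 4.45 being vehicle replicate 2, and 1.80 to 2.56 on the furan arrays. Of the 8 listed markers 0 passed, and Cftr was not tested. Of the 24823 features with a value on all 8 arrays, 32.1% were highest on vehicle replicate 2. The part of these in the Bcl2 values was not tested.

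Set against each guardian on the same array, Bax was higher after furan in every pairing. The log2 ratio of Bax to Mcl1 signal (brightest probes) was -2.41, -2.44, -2.53 and -2.49 on the vehicle arrays and -1.60, -1.55, -1.48 and -1.66 on the furan arrays. It was tight within each group, with an SD of 0.05 and of 0.08, and shifted by 0.90. The second Mcl1 probe rose by 0.57, so the shift against it would be smaller, and that ratio was not computed. The ratio of Bax to Bcl2l1 shifted by 0.68, from -1.88 ± 0.13 (SD, n = 4) to -1.20 ± 0.14. The ratio of Bax to Bcl2 shifted by 1.25, and it spanned 1.46 among the vehicle arrays but 0.10 among the furan arrays. The groups did not overlap in any of these 3 ratios or in that to Bak1. Each ratio is free of any shift of a whole array, and no test was run on it since the change of Bax enters all 4.

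**Figure D2:**
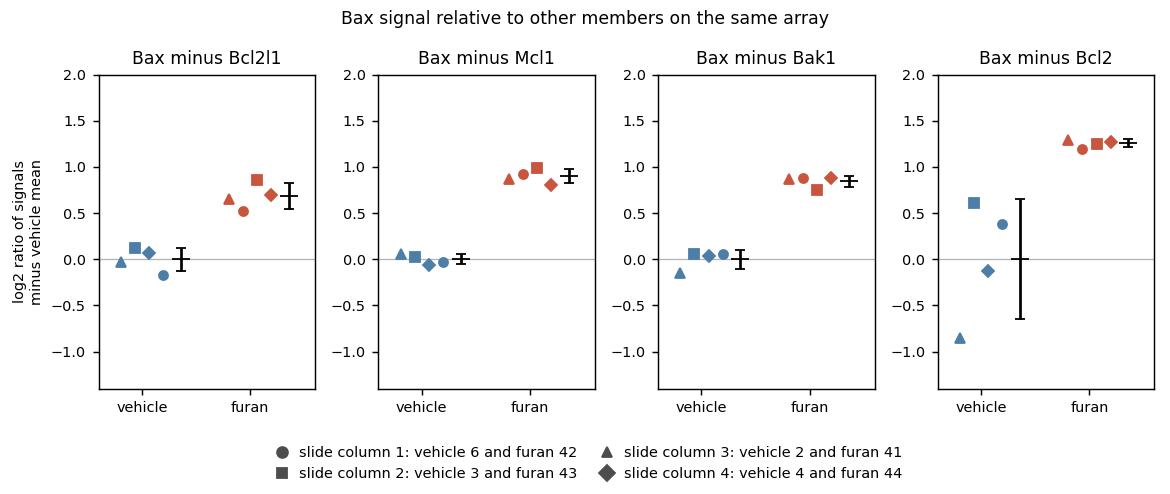
Log2 ratio of the Bax signal to that of Bcl2l1, Mcl1, Bak1 and Bcl2 on the same array, minus the vehicle mean of that ratio. The brightest probe stood for each gene, symbols mark the slide column and black bars the mean with SD (n = 4). The furan arrays lie above all vehicle arrays in each panel, by 0.68, 0.90, 0.84 and 1.25 on average, and vehicle replicate 2 (triangle) is the lowest array in the Bcl2 panel.

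Bmf was the only BH3-only gene that passed, and it fell. Its product is known as a sensor of lost attachment and of stress on the cytoskeleton. Bmf read 0.88, 1.34, 1.47 and 1.41 on vehicle replicates 2, 3, 4 and 6, and -0.71, -0.51, 0.39 and -0.17 on furan replicates 41, 42, 43 and 44. Every furan array was below every vehicle array, although the furan values were spread more widely. The mean went from 1.27 ± 0.27 (SD, n = 4) to -0.25 ± 0.49, a change of -1.53 ± 0.25 (SE, limma adjusted p = 0.0224; interval -2.11 to -0.94).

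The size of the Bmf fall varied over the slide, and its call did not hold without some single arrays. Within slide columns 1 to 4 the difference was -1.92, -0.95, -1.59 and -1.64, and in the slide rows it was -1.03 and -2.02. With 1 array left out it stayed between -1.74 and -1.37, but limma called it in only 2 of 8 fits, those without vehicle replicate 2 (adjusted p = 0.0258) and without furan replicate 43 (0.0260). Without vehicle replicates 3, 4 and 6 the adjusted p was 0.0581, 0.0636 and 0.0635, and without furan replicates 41, 42 and 44 it was 0.0642, 0.0674 and 0.0606. Of 13 other settings 10 kept the call, and it was lost after a median shift (0.490), with no filter on dim probes (0.0669) and with the slide column as a block (0.108). Relative to the median change of all features, Bmf was 1.38 to 1.59 lower under each of 6 scalings. Those that are plain shifts of each array gave nearly the same value by construction.

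**Figure D3:**
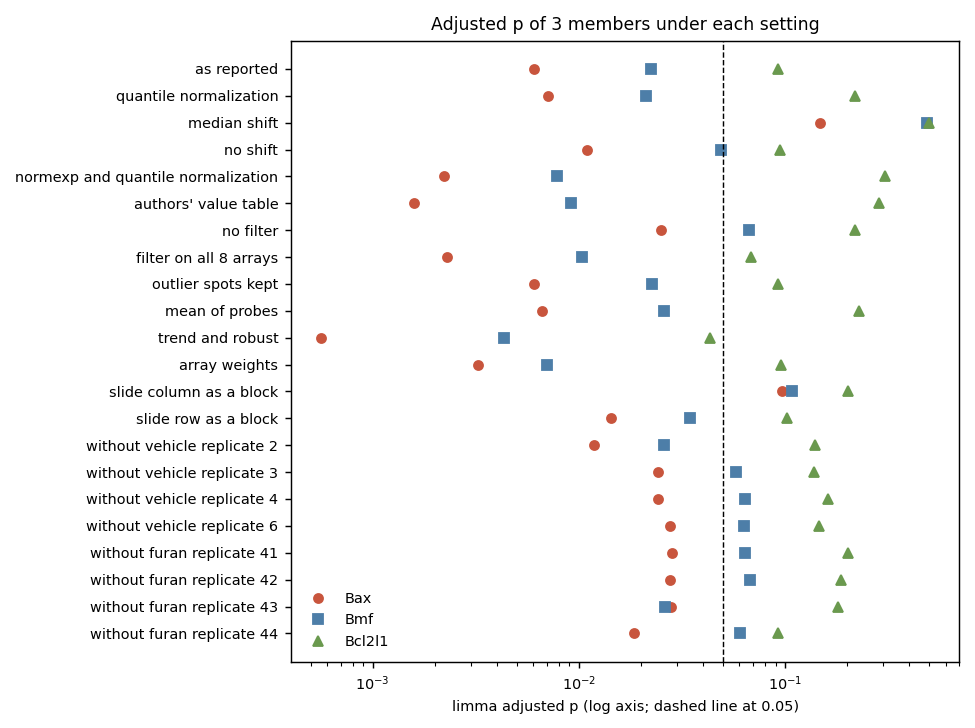
Limma adjusted p, on a log axis with a dashed line at 0.05, of Bax (circles), Bmf (squares) and Bcl2l1 (triangles) as reported and under each other setting or with 1 array left out. Bax is left of the line except after a median shift and with the slide column as a block, Bmf crosses it in 6 of the 8 fits without 1 array, and Bcl2l1 is left of it only with a trend and robust estimation.

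The other BH3-only genes did not pass, and they differed in how well they were measured. Bid, the link from death receptors to mitochondria, read 1.24, 1.71, 1.63 and 1.70 on the vehicle arrays and 1.62, 1.75, 1.88 and 1.74 on the furan arrays. Those groups overlapped, with vehicle replicate 2 the lowest, and the change was 0.18 ± 0.13 (SE, limma adjusted p = 0.397; interval -0.12 to 0.47). Bbc3, which encodes PUMA, read 2.78, 2.57, 2.48 and 2.10 on the vehicle arrays and 2.76, 2.16, 2.50 and 2.48 on the furan arrays. The Bbc3 groups covered nearly the same range. Its change was -0.01 ± 0.18 (SE, limma adjusted p = 0.982), and its interval of -0.42 to 0.41 does not contain the change seen for Bax.

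Bcl2l11 and Pmaip1 were dim and scattered, so that changes over 2-fold in either direction for Bcl2l11, and upward for Pmaip1, lay within their intervals. Bcl2l11, which encodes BIM, read -1.11, -3.62, -3.46 and -2.85 on the vehicle arrays and -2.53, -3.44, -2.04 and -3.33 on the furan arrays. Vehicle replicate 2 was again the highest, and the change of -0.07 ± 0.58 (SE, limma adjusted p = 0.942; interval -1.42 to 1.28) became 0.48 without it. Pmaip1, which encodes NOXA, read -3.27, -4.72, -2.33 and -4.17 on the vehicle arrays and -3.49, -3.42, -2.70 and -2.74 on the furan arrays. The highest and the lowest Pmaip1 values were both on vehicle arrays. Its change was 0.53 ± 0.50 (SE, limma adjusted p = 0.500; interval -0.62 to 1.69).

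The 3 p53 target genes of the family gave separate readings in the same livers. Bax changed by 1.05, Pmaip1 by 0.53 with an interval that contains the Bax value, and Bbc3 by -0.01 with an interval that does not. Among 13 other p53 targets with roles in apoptosis and growth restraint, 8 passed as higher and 0 as lower, with a median change of 1.28. Of all features, 2.86% passed as higher and 1.31% as lower. This list was chosen with earlier results of these data known, so its counts are a description and not a test. The 4 with the smallest adjusted p were Cdkn1a, a cell cycle inhibitor, Aen, an apoptosis-enhancing nuclease, Phlda3, a repressor of Akt, and Zmat3, an RNA-binding zinc finger gene. Their changes were 4.66, 1.55, 3.63 and 1.64. The nearest to passing of the rest was Ei24, at 0.32 ± 0.12 (SE, limma adjusted p = 0.170).

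Outside the 10, the wider BCL2 family held no gene that passed. Of 15 further family and BCL2-related genes 13 had a probe given their symbol, and 12 were tested. Bcl2a1a, Bcl2a1b and Bcl2l10 were not tested. In limma 0 of the 12 passed, and 3 had an unadjusted p under 0.05, beside 23.8% of all features. The median change of the 12 was 0.06. Closest was Bcl2l15, a little-studied relative, at -1.33, -1.41, -1.39 and -1.14 on the vehicle arrays and -0.69, -0.99, -0.92 and -0.85 on the furan arrays. These groups did not overlap, beside 10.8% of all features that were higher without overlap. The Bcl2l15 change was 0.46 ± 0.10 (SE, limma adjusted p = 0.0536). It was past the threshold in 3 of 13 other settings and in 0 of 8 fits without 1 array (adjusted p 0.0693 to 0.133).

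**Figure D4:**
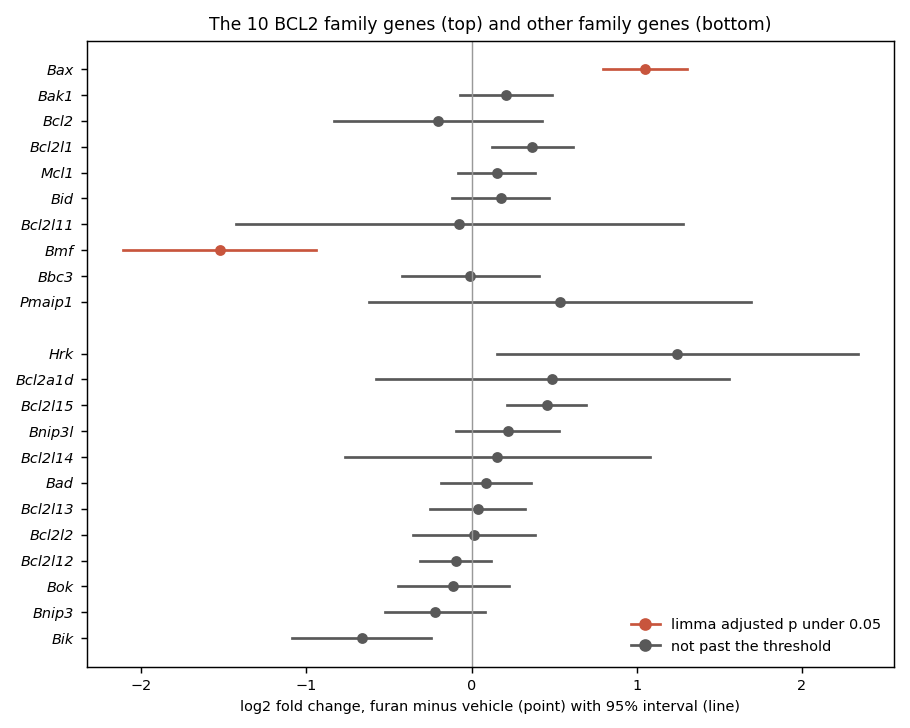
Change in log2 signal, furan minus vehicle, with its 95% interval for the 10 BCL2 family genes (top, in the order effectors, guardians, BH3-only) and for 12 other family genes (bottom). Bax, at 1.05, and Bmf, at -1.53, are the genes past a limma adjusted p of 0.05; the intervals of Bcl2l11 and Pmaip1 are the widest among the 10.

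The listed genes of mitochondrial release and of the steps after it showed no call. All 17 tested genes for mitochondrial release, the apoptosome, caspases and their inhibitors failed the threshold in limma (3 had an unadjusted p under 0.05, beside 23.8% of all features), with a median change of 0.11. Closest was Birc5, which encodes the inhibitor and mitotic protein survivin. It read 0.43, 1.04, 0.27 and 0.01 on the vehicle arrays and 1.12, 1.48, 1.96 and 2.06 on the furan arrays. These did not overlap, and the change was 1.22 ± 0.28 (SE, limma adjusted p = 0.0538, past the threshold in 5 of 13 other settings).

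Of 18 genes whose products are known to act on BCL2 family genes or proteins, 2 passed as higher and 0 as lower. The shares of all features were 2.86% and 1.31%, and the median change of the 18 was 0.08. Jun, an AP-1 subunit downstream of the stress kinase JNK, rose from 1.59 ± 0.11 (SD, n = 4) to 3.78 ± 0.35, or 4.55-fold (limma adjusted p = 0.00306). Usp9x, a deubiquitinase that stabilises MCL1, read -0.15, -0.05, 0.12 and 0.10 on the vehicle arrays and 0.66, 0.46, 0.71 and 0.58 on the furan arrays. Usp9x was thus higher on every furan array, by 1.51-fold (limma adjusted p = 0.0234). That call was kept in 1 of 8 fits without 1 array, with adjusted p from 0.0368 to 0.0756. The nearest to passing was Stat3, a transcription factor that induces Mcl1 and Bcl2l1, at 0.40 ± 0.12 (SE, limma adjusted p = 0.106). Trp53, the gene of p53 itself, changed by -0.08 ± 0.22 (limma adjusted p = 0.833).

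Among the genes whose levels over the 8 arrays followed those of Bax most closely were Traf3, an adaptor of tumour necrosis factor receptors (Pearson r = 0.995), and Nhp2, a protein of small nucleolar particles (0.995). They were 0.79 and 0.64 higher after furan (limma adjusted p = 0.0133 and 0.0150), and the Nhp2 call was kept in 5 of 8 fits without 1 array. For Bmf they were Tnfsf10, which encodes the death ligand TRAIL (r = 0.982), the carbonic anhydrase relative Car11 (0.970) and the Rab regulator Tbc1d16 (0.966). Tnfsf10 read 0.77, 1.18, 1.08 and 1.07 on the vehicle arrays and 0.21, 0.18, 0.52 and 0.32 on the furan arrays, and like Bmf it was lowest in the vehicle group on replicate 2 and highest in the furan group on replicate 43. Its change was -0.72 ± 0.12 (SE, limma adjusted p = 0.0242), and the call was kept in 1 of 8 fits without 1 array (adjusted p 0.0188 to 0.0775) and in 9 of 13 other settings. The difference was -0.42 for Tbc1d16 (adjusted p = 0.0412, called in 0 of 8 fits without 1 array) and -0.50 for Car11, which did not pass (0.0844). These correlations pool both groups, share the arrays and their scaling, and are given as a description of 8 points.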

How the data were processed

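Liver RNA of 4 vehicle and 4 furan mice was read on 1 slide of Agilent design 028005. Per the file headers, each spot has a processed fluorescence intensity from Feature Extraction 11.0.1.1, after background subtraction and detrending. The authors also deposited log2 values for each probe, by a method not given in the sources used here. Per array, 3671 control spots and 128 to 315 outlier spots were dropped, and none was saturated. The array's 75th percentile was subtracted from the log2 intensity, and spots of 1 probe were averaged. Of 55681 probes 33847 were well above background on at least 4 arrays. Symbols came from RefSeq accessions through a table for GRCm38.p6, for 27235 of 28685 such probes. The brightest kept probe stood for its gene.

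The 2-sided test was the moderated linear model of limma 3.58.1 (R 4.3.3), and p-values were adjusted by Benjamini-Hochberg across 24924 features. The fit was tested on simulated data. The labels name a randomized block design without its blocks. The p-values measure the spread among 4 animals per group, which limits precision. The other settings were 5 scalings, 2 filters, outlier spots kept, probe means, trend with robust variance, array weights, slide row or column as a block, and 1 array left out. Normexp used an offset of 50. The members, lists and settings were chosen with earlier results of these data known. Named genes were the members, up to 4 called genes and the nearest uncalled gene of each list, and the 3 genes most correlated with each called member, of which 1 is not reported here. Motifs were searched in the 250 bases before each start. Other doses in the labels were not analysed here. Plots used matplotlib 3.10.9 and pandas 2.3.3 in Python 3.11.15.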

Additional observations from a re-analysis of the deposited data

How the results depend on the processing

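The Bax and Bmf changes kept their direction in all 21 other fits, and Bax its call in 19 of them. The number of members called was 2 as reported, 0 after a median shift, 1 without the filter on dim probes, 0 with the slide column as a block, 1 at an adjusted p under 0.01 (Bax), and 1 to 2 with 1 array left out. The number of all genes called was 1041 as reported. It was 86 after a median shift, 261 without a shift, 1669 in the authors' value table, 163 without the filter, 1740 with a filter on all 8 arrays, 2000 with trend and robust variance, 2047 with array weights, and 195 to 928 with 1 array left out. With the slide column as a block it was 0 in limma, with 4723 at an unadjusted p under 0.05. Scalings moved the median change of all features by up to 0.49. Relative to that median, Bcl2 was at -0.14 to -0.05 and Bcl2l11 at 0.02 to 0.17 under the 6 scalings. The reported scaling, the median shift and no shift differ by a constant per array, so they agree here by construction.

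The members near no change switched direction. Bcl2 was at 0.281 after a median shift, 0.0204 with array weights and 0.0403 without vehicle replicate 2, and from -0.359 to 0.0403 over all fits without 1 array. Bcl2l11 was at 0.224 with quantile normalization, 0.411 after a median shift, 0.0518 without a shift, 0.0635 with normexp, 0.0834 in the authors' value table and 0.169 with array weights. Without 1 array it ranged from -0.361 to 0.475, above 0 without vehicle replicate 2 (0.475), furan replicate 42 (0.128) and furan replicate 44 (0.0895). Bbc3 was at 0.478 after a median shift, 0.119 without a shift and 0.106 with array weights. Without 1 array it ranged from -0.135 to 0.0984, above 0 without vehicle replicates 2 (0.0927) and 3 (0.0215) and without furan replicate 42 (0.0984). The causes of these moves were not tested. The replicate numbers of vehicle and furan animals do not overlap and pair no animals, so the only paired fit was that with the slide column as a block, given above. The settings for the second Mcl1 and Bcl2l1 probes were added after seeing the data. Dim probes, Pmaip1 and Bcl2l11 above all, limit what 4 arrays per group can show.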

Other observations

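Bcl2a1d, a guardian gene of blood cells, was singled out after its values were seen. It read -1.36 on the lowest vehicle array, replicate 6, and 0.88 on vehicle replicate 4, and it read -0.34, -0.22, 0.04 and -0.17 on the furan arrays. Vehicle replicate 4 was the highest of the 8, and the other 3 vehicle arrays were below every furan array. The change was 0.49 ± 0.46 (SE, limma adjusted p = 0.505) and 1.00 without vehicle replicate 4 (0.0304), while the adjusted p ranged up to 0.754 in the fits without 1 other array. Kupffer cell and macrophage markers were also highest on that array, with 7 of 8 tested and 0 past the threshold. Their summed signal was 123 to 303 on the vehicle arrays, 303 being vehicle replicate 4, and 145 to 182 on the furan arrays. Also highest there were 4 of 5 B cell, 5 of 8 T and NK cell, 3 of 8 endothelial and 2 of 8 stellate markers. So were 1 of 7 cholangiocyte, 1 of 10 hepatocyte and 1 of 5 erythroid markers, beside 9.79% of all features. Neutrophil markers were highest on furan replicate 42 (2 of 3) or vehicle replicate 6 (1 of 3). The part of any of these cell types in the Bcl2a1d values was not tested.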
